A study of Mus musculus with 2 samples.

Results

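The Krt5 squamous cells were the cells of the RKP tumour section that carried Krt5, the basal keratin of stratified epithelium, together with at least 1 of 3 genes of the same kind of tissue. A cell was taken when it held 20 or more gene counts, 2 or more counts of Krt5 and at least 1 count of Dsc3, Krt79 or Calm4. Of 248060 RKP cells with 20 or more gene counts, 3674 met this rule (1.48%, 95% Clopper-Pearson interval 1.43 to 1.53), out of 516855 cells in both sections of the series. They were split into 1788 cells with Calm4 (48.7%), 1188 cells with Krt79 but no Calm4 (32.3%) and 698 cells with Dsc3 alone (19.0%), called here Calm4 cells, Krt79 cells and Dsc3 cells. The cells were chosen by their measured counts of Krt5, Dsc3, Krt79 and Calm4, so the values of these 4 genes are given as description only.

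The series read RNA molecules in place with Xenium In Situ in paraffin sections of 2 subcutaneous mouse tumours, RKP and EKP, with a panel of 379 tissue atlas genes and 100 added genes. Cultured RKP or EKP cells had been injected with Matrigel into both flanks of C57BL/6 mice aged 5 weeks, and the tissue is labelled as diffuse gastric cancer. The labels do not spell out the letters of RKP and EKP, and the title names a RHOA mutation without tying it to a line. Both tumours were placed in 1 block on 1 slide, so there was 1 section of each line, no replicate and no test between groups. The hosts were immune-competent animals with their own skin, and whether the Krt5 cells derive from the injected line or from host tissue was not tested.

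Stratified epithelium renews from a basal layer, held to its basement membrane by hemidesmosomes and marked by Krt5. Cells that leave this layer switch keratins and build a cornified envelope from proteins such as involucrin, loricrin and the late cornified envelope proteins. In hairy skin the same epithelium forms hair follicles, which keep WNT- and hedgehog-responsive stem cells and house melanocytes, and sebaceous glands, which make lipid. Dsc3 is a desmosomal cadherin of basal and lower layers, Krt79 is a keratin of the upper hair follicle and gland duct, and Calm4 is a calmodulin-like protein of differentiating epidermis.

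The RKP section held 255744 cells and 44294494 gene counts, with a median of 154 per cell, and the EKP section held 261111 cells and 31597828 gene counts, with a median of 84. Cells under 20 gene counts made up 3.00% of the RKP section and 26.6% of the EKP section. The 20 negative control probes together gave 15.7 counts per 1000000 gene counts in RKP and 50.1 in EKP. Krt5 squamous cells had a median of 129 gene counts and 52 genes detected, against 159 counts and 62 genes in the remaining 244386 RKP cells. The medians were 145 counts in Calm4 cells, 124 in Krt79 cells and 105 in Dsc3 cells. Levels below are counts of a gene per 1000000 gene counts summed over a group of cells (CPM), and intervals cover counting error only. Transcripts of neighbouring cells can be assigned to a cell by segmentation, and the part this has in the levels was not tested beyond the comparisons with other cell classes given here. Cell identifiers were shared between the sections in 19 cases, which concerns names and not cells.

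By the same rule the EKP section held 6 such cells among 191692 (0.00313%, 0.00115 to 0.00681), so the RKP share was 473-fold higher (217 to 1290). The 6 EKP cells held 40 to 110 gene counts, and 5 of them had exactly 2 counts of Krt5. In these EKP cells Calm4 was present in 1, Krt79 without Calm4 in 3 and Dsc3 alone in 2. The size of the ratio depended on the gate. With 1 count of Krt5 allowed, 4514 RKP cells and 85 EKP cells qualified and the ratio was 41.0. With every cell thinned at random to 40 gene counts, 1973 RKP cells and 1 EKP cell qualified, a ratio of 1359.

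All 3 partner genes were present in 824 of the Krt5 squamous cells. Calm4 with Krt79 was found in 154, Calm4 with Dsc3 in 740 and Calm4 alone in 70. Krt79 with Dsc3 was found in 927 and Krt79 alone in 261. Dsc3 was therefore detected in 87.5% of Calm4 cells and in 78.0% of Krt79 cells, and Krt79 in 54.7% of Calm4 cells, so the groups overlapped in the genes that defined them. The median Krt5 count was 7 in Calm4 cells, 6 in Krt79 cells and 6 in Dsc3 cells, and its level was 50968, 46663 and 61322 CPM in the same groups.

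At the edge of the gate the cells were mixed. The 493 cells with exactly 2 counts of Krt5 and a partner gene had Col17a1 at 7249 CPM and Krt8, the keratin of simple epithelium, at 4234 CPM. The 3181 cells with 3 or more counts of Krt5 had Col17a1 at 20256 CPM and Krt8 at 696 CPM. Just outside, 840 cells with 1 count of Krt5 and a partner had Col17a1 at 2115 CPM and Krt8 at 13351 CPM. The 434 cells with 2 or more counts of Krt5 and no partner stood nearer the tumour epithelium, with Krt8 at 29629 CPM and Epcam at 30894 CPM.

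The label of squamous cells was checked against markers that had not chosen them. Of the short marker list that names squamous keratinocytes, Ivl, the envelope protein involucrin, was the one gene on the panel beside the 4 that chose the cells. Further basal and differentiated keratinocyte genes were measured and are given with the lists. Ivl stood at 3659 CPM in Krt5 squamous cells, against 391 CPM in Epcam Krt8 cells and 235 CPM in the rest of the section. By group it stood at 5787 CPM in Calm4 cells, 1391 CPM in Krt79 cells and 425 CPM in Dsc3 cells. In Dsc3 cells it was thus near its level in Epcam Krt8 cells, and does not bear out the label there. Ivl is also on the list of urothelial genes. Uroplakins, which urothelium carries beside Krt5, were low, with Upk1a at 65.9 CPM in Krt5 squamous cells and 283 CPM in the rest. The word layers was not borne out by the panel, because the 3 groups did not form 1 nested order and no positions were used. The groups are therefore named by their gating genes alone.

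Col17a1, the hemidesmosome collagen that anchors basal cells, stood at 18889 CPM in Krt5 squamous cells and at 43.3 CPM in the rest of the RKP section, a ratio of 436 (415 to 458). Genes of stratified epithelium were among the highest ratios in this comparison, and genes of simple, mucin-bearing epithelium among the lowest. The panel was read on 438 genes that had more counts than any single negative control probe in Krt5 squamous cells or in the rest. Of these, 93 were 2-fold or more higher in Krt5 squamous cells (21.2% of those compared) and 209 were 2-fold or more lower (47.7%). The median log2 ratio over all 438 genes was -0.87, and scaling by the median of ratios gave 129 higher and 165 lower. The 2-fold line sorts genes by size alone, and no test stands behind it.

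Next after Col17a1 by ratio came genes of signalling and transport. Wnt3, a secreted WNT ligand, stood at 1227 CPM in Krt5 squamous cells, at least 333-fold above the rest. Calm5, a calmodulin-like gene of skin, was 276-fold higher (257 to 297), and Sostdc1, a secreted antagonist of BMP and WNT, was 263-fold higher (231 to 301). Them5, a mitochondrial thioesterase, was 257-fold higher (238 to 277). The sodium-glucose transporter Slc5a1 was 220-fold higher. Lhx2, a homeobox factor of hair follicle stem cells, was 214-fold higher (196 to 234). Krt16, a keratin of stressed and follicular epidermis, was 140-fold higher, and Ly6g6c, a small membrane-anchored protein, 119-fold higher. Gm94 and 2610528A11Rik were 170-fold and 222-fold higher.

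These transcripts were concentrated in few cells. Krt5 squamous cells made up 1.48% of the cells and yet held 86.0% of the section's Wnt3 counts, 84.5% of Col17a1, 77.5% of Calm5, 76.7% of Sostdc1, 76.3% of Them5 and 72.8% of Lhx2. Krt16 followed with 63.6%. Of the gating genes, 87.9% of Dsc3 counts and 81.8% of Krt5 counts lay in these cells, but only 60.6% of Krt79 counts.

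The genes farthest below the rest of the section were mostly those of simple epithelium. Prom1, a membrane protein of epithelial protrusions, stood at 123 CPM in Krt5 squamous cells and 11578 CPM in the rest, 94.4-fold lower (74.3 to 122). Krt19, a simple epithelial keratin, was 92.0-fold lower (76.7 to 111). The mucin Muc4, the surface glycoprotein Gpa33, the claudin Cldn2 and the protease Ctse were 82.4-fold, 81.9-fold, 78.5-fold and 48.3-fold lower. The tight junction claudin Cldn7 was 46.7-fold lower (27.3 to 87.7) and the mucin Muc20 at least 57.6-fold lower. Retnla, a secreted product of alternatively activated macrophages, had 1 count in all Krt5 squamous cells, a ratio of 124 with an interval from 22.3 to 4909.

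Lists of genes gave the same picture in counts. Against the rest, all 7 kept genes of the differentiated keratinocyte list were 2-fold or more higher in Krt5 squamous cells, beside 21.2% of all genes. Of 8 measured, Calm4 was left out because it chose cells. The median log2 ratio of the list was 6.60, against -0.87 over all genes. Sbsn, a suprabasal secreted protein, stood at 20165 CPM in Krt5 squamous cells and 399 CPM in the rest. Of the 4 measured basal keratinocyte genes, Krt5 and Dsc3 were left out because they chose cells. The 2 kept, Col17a1 and Egfr, were both 2-fold or more higher than in the rest. Egfr stood at 10884 CPM in Krt5 squamous cells and 4740 CPM in the rest. In Dsc3 cells Col17a1 stood at 27074 CPM and Egfr at 14155 CPM. In the list of simple epithelium and tumour genes, 9 of 11 were lower, beside 47.7% of all genes, at a median of -4.55. Epcam and Cdh1 were the remaining 2 of that list. Epcam, an adhesion molecule, stood at 14503 CPM in Krt5 squamous cells and 24892 CPM in the rest. Cdh1, the adherens junction cadherin, stood at 14120 CPM and 9378 CPM in the same order of groups. Of 5 proliferation genes, none differed by 2-fold either way, as was so for 136 of all 438 genes.

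Most marker lists of other cell types summed to less than in the rest of the section, but were not absent. The 9 macrophage markers summed to 4480 CPM in Krt5 squamous cells and 49355 CPM in the rest. All 9 were at least 2-fold lower, beside 47.7% of all genes. The 3 endothelial markers summed to 808 CPM in Krt5 squamous cells and 3488 CPM in the rest. Fibroblast markers, 5 in number, summed to 9703 CPM and 36101 CPM in the same cells, and 6 pericyte and smooth muscle markers to 7888 CPM and 33548 CPM. The 6 T cell markers were at 1531 CPM in Krt5 squamous cells and 1857 CPM in the rest, and 3 lymphatic markers at 533 CPM and 549 CPM. The 2 B cell markers were at 14.7 CPM and 41.5 CPM, the mast cell marker Cpa3 at 156 CPM and 232 CPM, and the muscle marker Pvalb at 10.99 CPM and 107 CPM. Neutrophil markers summed to 3033 CPM and 5271 CPM. Among them Stfa2l1 (1211 CPM and 189 CPM) and Cxcr2 (989 CPM and 912 CPM) were higher, and Csf3r and Il1r2 lower. Sums ran the other way for neuronal and glial markers (335 CPM and 207 CPM) and for melanocyte genes (2698 CPM and 780 CPM). The adipocyte gene Aqp7 was also higher, at 209 CPM and 6.51 CPM. The part of all these markers in the levels of other genes was not tested.

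The tumour epithelium of the same section was the nearest comparison. It was taken as the 91739 cells with 2 or more counts of Epcam and of Krt8 that were not Krt5 squamous cells. Of 433 genes compared, 123 were 2-fold or more higher in Krt5 squamous cells (28.4%) and 156 lower (36%), with a median log2 ratio of -0.17. Trim29, a stratified epithelial protein, stood at 36021 CPM in Krt5 squamous cells and 1203 CPM in Epcam Krt8 cells. Aqp3, the glycerol channel of epidermis, stood at 14082 CPM in Krt5 squamous cells and 1320 CPM in Epcam Krt8 cells. Serpinb5, the inhibitor-like protein maspin, was nearer, at 27888 CPM and 6253 CPM. Trim29 and Serpinb5 were chosen after their values were seen.

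The largest ratios against tumour epithelium rested on genes that were close to the control probes there. Calm5 was at least 2020-fold higher in Krt5 squamous cells, Gm94 at least 1028-fold, Sostdc1 at least 609-fold, Slc5a1 at least 488-fold and Muc15, a membrane mucin, at least 425-fold. Them5 was 1564-fold higher (1242 to 1997), with 74 counts in Epcam Krt8 cells. Crct1, a gene of the epidermal differentiation complex, was 572-fold higher (470 to 702). Col17a1 was 632-fold higher (584 to 685). On the low side Prom1 was 176-fold lower, Krt19 164-fold, Muc4 154-fold, Gpa33 153-fold, Cldn2 147-fold, Gabrp, a GABA receptor subunit, 103-fold, and Acan, a cartilage-type proteoglycan, 68.1-fold.

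**Figure D1:**
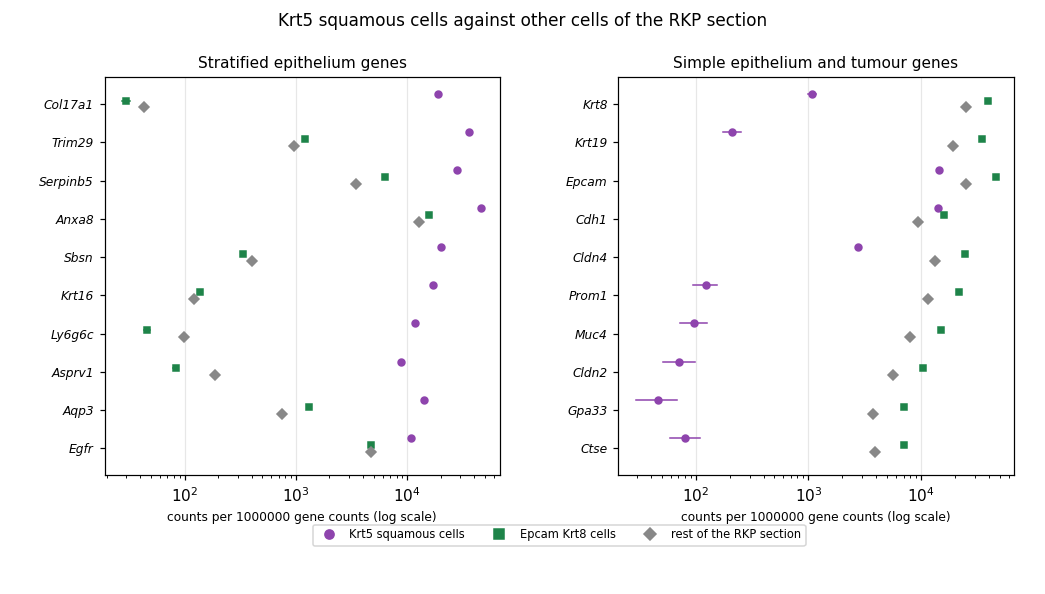
Levels of 10 stratified epithelium genes (left) and 10 simple epithelium and tumour genes (right) in counts per 1000000 gene counts on a log scale, for Krt5 squamous cells (circles), Epcam Krt8 cells (squares) and the rest of the RKP section (diamonds), with exact 95% Poisson intervals. Col17a1 stood at 18889 CPM in Krt5 squamous cells and under 50 CPM in both other groups, while Krt19 stood at 211 CPM in Krt5 squamous cells, 34623 CPM in Epcam Krt8 cells and 19386 CPM in the rest.

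The share of cells with a transcript was compared after every cell was thinned to 40 gene counts, leaving out shallower cells (95 Krt5 squamous cells, 2.59%). Cells gated on 2 or more counts of the endothelial gene Pecam1 (median 170 gene counts) or of the neutrophil receptor gene Csf3r (median 103) served as cells that should lack keratins. Krt8 was found in 1.36% of Calm4 cells (0.876 to 2.02), 6.05% of Krt79 cells (4.74 to 7.59) and 4.42% of Dsc3 cells (3.00 to 6.26). It was found in 78.2% of Epcam Krt8 cells, 20.4% of Pecam1 cells and 26.8% of Csf3r cells. The share with Krt8 in all 3 groups was thus below that in endothelial- and neutrophil-gated cells, and is not read as expression. Its level still differed between the groups, at 372 CPM in Calm4 cells, 2069 CPM in Krt79 cells and 1558 CPM in Dsc3 cells, and its source was not tested. Krt19 was likewise at 0.511% of Calm4 cells, 1.14% of Krt79 cells and 1.03% of Dsc3 cells, against 13.95% of Pecam1 cells and 24.1% of Csf3r cells.

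Epcam differed from Krt8 in this respect. Epcam was found in 43.6% of Calm4 cells, 42.8% of Krt79 cells and 42.8% of Dsc3 cells, against 16.2% of Pecam1 cells and 24.8% of Csf3r cells. Col17a1 was found in 47.5% of Calm4 cells, 42.4% of Krt79 cells and 61.4% of Dsc3 cells, and in 0.306% of Pecam1 cells and 0.102% of Csf3r cells. The unthinned share of Col17a1 in Calm4 cells was 73.7%.

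**Figure D2:**
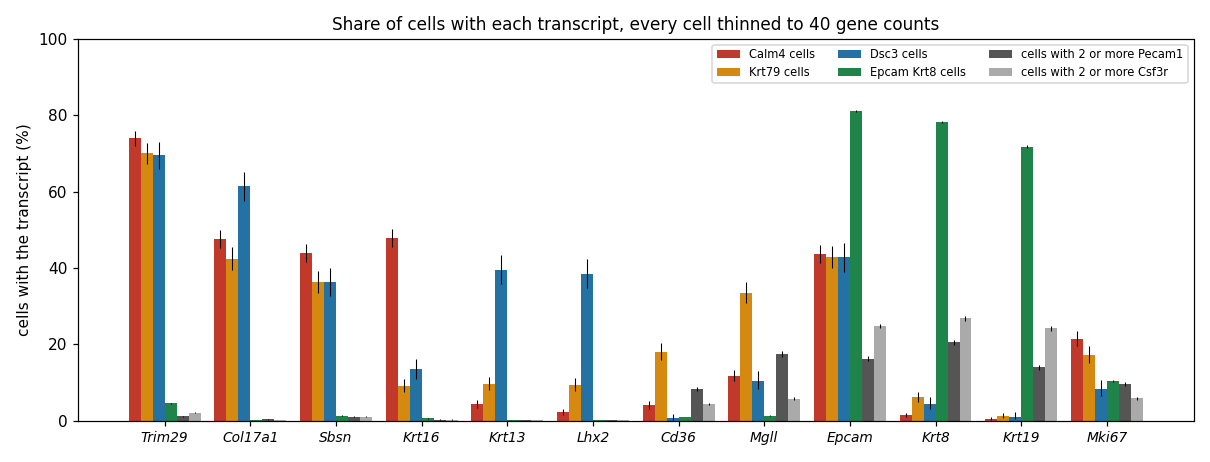
Share of cells with each of 12 transcripts after thinning every cell to 40 gene counts, in percent, for Calm4, Krt79, Dsc3 and Epcam Krt8 cells and for cells gated on Pecam1 or Csf3r; bars start at 0 and lines are 95% Clopper-Pearson intervals. Trim29, Col17a1 and Sbsn were found in over 35% of each group of Krt5 cells, Krt16 mainly in Calm4 cells (47.8%), Krt13 and Lhx2 mainly in Dsc3 cells (39.5% and 38.5%), and Krt8 in under 7% of each group.

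Of 262 genes that reached 200 CPM in at least 1 group, 29 were highest in Calm4 cells by 2-fold or more over both other groups, 17 in Krt79 cells and 46 in Dsc3 cells. The remaining 170 led no group by that margin. Trim29 was among the even genes, with 37205 CPM in Calm4 cells, 36870 CPM in Krt79 cells and 29611 CPM in Dsc3 cells. So was Anxa8, an annexin, with 50389 CPM, 42536 CPM and 37455 CPM in the same order. Both were chosen after their values were seen.

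**Figure D3:**
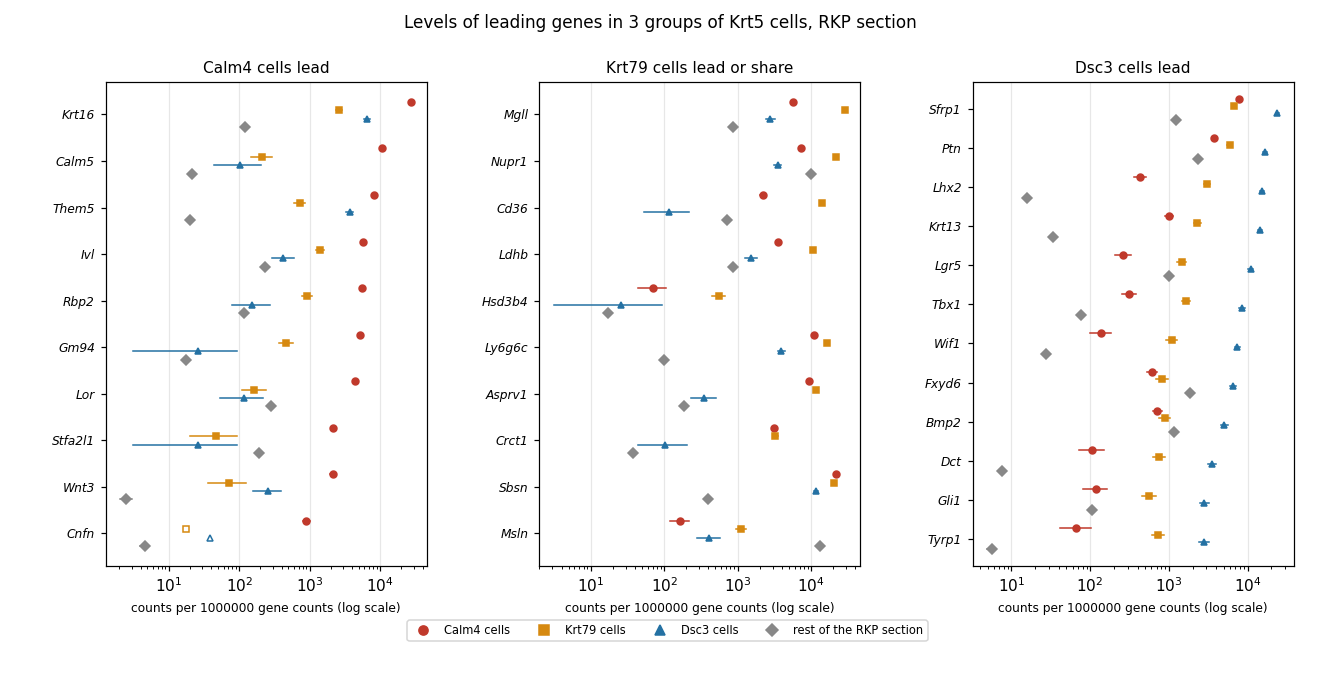
Levels of genes that led Calm4 cells (left), led or were shared by Krt79 cells (middle) and led Dsc3 cells (right), in counts per 1000000 gene counts on a log scale, with exact 95% Poisson intervals; open symbols mark the level of 3 counts where a gene had none. Krt16, Calm5 and Lor were highest in Calm4 cells, Mgll and Cd36 in Krt79 cells, and Lhx2, Krt13 and Lgr5 in Dsc3 cells.

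Calm4 cells carried the genes of the cornified envelope and late epidermal differentiation. Krt16 stood at 27840 CPM in Calm4 cells, 2618 CPM in Krt79 cells and 6492 CPM in Dsc3 cells. Ivl stood at 5787 CPM in Calm4 cells, 1391 CPM in Krt79 cells and 425 CPM in Dsc3 cells, against 235 CPM in the rest of the section. Lor, the envelope protein loricrin, stood at 4475 CPM in Calm4 cells, 165 CPM in Krt79 cells and 116 CPM in Dsc3 cells, with most of its counts in 1 stretch of the file. Cnfn, the envelope protein cornifelin, stood at 900.3 CPM in Calm4 cells and had no count among 169621 gene counts in Krt79 cells or 77640 in Dsc3 cells, which allows up to 17.7 and 38.6 CPM (3 counts). Of its 269 counts in Calm4 cells, 247 lay in the same stretch as those of Lor.

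Against Dsc3 cells, 334 genes were compared, of which 59 were 2-fold or more higher in Calm4 cells (17.7%) and 134 lower (40.1%). The median log2 ratio was -0.54, and scaling by the median of ratios turned the split to 100 higher and 85 lower. Calm5 was 104-fold higher in Calm4 cells (52.7 to 241) and Gm94 204-fold higher on 2 counts in Dsc3 cells (56.4 to 1686). Lor was 38.6-fold higher (20.3 to 84.6), a log2 ratio of 5.27 that was 0.40 without the cells of 1 stretch of the file (part 9, described below). Rbp2, a retinol-binding protein, was 36.0-fold higher. Stfa2l1, a stefin-type protease inhibitor, was 84.6-fold higher on 2 counts in Dsc3 cells (23.3 to 699.9). Fxyd4, a regulator of the sodium pump, was 33.8-fold higher on 1 count (5.96 to 1344), and Crct1 30.8-fold higher.

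Over all genes compared with Dsc3 cells, 17.7% were higher in Calm4 cells and 40.1% lower. Of the 7 kept differentiated keratinocyte genes, 5 were higher in Calm4 cells, 1 was lower and 1 lay between, with a median log2 ratio of 2.10. The lower one was Krt13, a keratin of non-cornified stratified epithelium, at 1011 CPM in Calm4 cells and 14284 CPM in Dsc3 cells. Sbsn lay between, at 21996 CPM in Calm4 cells and 11862 CPM in Dsc3 cells. Differentiation genes thus did not all stand together on the Calm4 side.

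Against Krt79 cells, 345 genes were compared, of which 44 were 2-fold or more higher in Calm4 cells (12.8%) and 138 lower (40%). The median was -0.53, and scaling by the median of ratios gave 65 higher and 95 lower. Calm5 was 50.4-fold higher in Calm4 cells (36.4 to 72.1), Wnt3 30.2-fold (17.2 to 58.7) and Lor 27.1-fold (18.7 to 41.0). Cnfn was at least 50.9-fold higher, Fxyd4 at least 24.6-fold and the late cornified envelope gene Lce1m at least 19.5-fold, each with no count in Krt79 cells.

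A part of the Calm4 pattern came from 1 stretch of the file. The cells of the RKP file were divided into 10 successive parts in their listed order, which may follow place in the section but was not shown to. Without the cells of part 9, Lor was under the 2-fold line against Dsc3 cells (log2 ratio 0.40) and Lce1m against Krt79 cells (0.54). Without that part, 87 rather than 134 genes were 2-fold lower against Dsc3 cells, and 89 rather than 138 against Krt79 cells. Lor in Calm4 cells was at 130 CPM in part 5, 267 CPM in part 8 and 6749 CPM in part 9, and Wnt3 was at 97.5, 340 and 3165 CPM in the same parts. Cnfn was at 260, 122 and 1265 CPM in Calm4 cells of these parts. Krt16 stood at 23616, 11495 and 32651 CPM in Calm4 cells of those parts, so its level was high in each.

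Calm4 and Calm5 are a pair of calmodulin-like genes, neighbours on chromosome 13 with no other gene listed between them in RefSeq (GRCm38.p6). Their start regions are shown because Calm4 chose the cells in which Calm5 stood highest, and the letters are nearly the same. Each sequence runs from 250 bases before to 50 bases after the annotated start, on the plus strand, at chr13:3837507-3837806 for Calm4 and chr13:3853923-3854222 for Calm5. Capitals mark the bases that are identical in both when the Calm5 window is moved by 44 bases.
Calm4: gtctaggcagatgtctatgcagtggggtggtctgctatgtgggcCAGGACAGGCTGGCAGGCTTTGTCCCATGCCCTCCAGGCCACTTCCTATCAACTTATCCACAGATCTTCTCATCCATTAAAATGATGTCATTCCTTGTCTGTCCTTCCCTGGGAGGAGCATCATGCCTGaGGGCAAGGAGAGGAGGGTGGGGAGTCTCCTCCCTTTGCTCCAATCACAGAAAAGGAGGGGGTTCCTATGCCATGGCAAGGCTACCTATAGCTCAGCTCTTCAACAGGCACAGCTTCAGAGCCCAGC
Calm5: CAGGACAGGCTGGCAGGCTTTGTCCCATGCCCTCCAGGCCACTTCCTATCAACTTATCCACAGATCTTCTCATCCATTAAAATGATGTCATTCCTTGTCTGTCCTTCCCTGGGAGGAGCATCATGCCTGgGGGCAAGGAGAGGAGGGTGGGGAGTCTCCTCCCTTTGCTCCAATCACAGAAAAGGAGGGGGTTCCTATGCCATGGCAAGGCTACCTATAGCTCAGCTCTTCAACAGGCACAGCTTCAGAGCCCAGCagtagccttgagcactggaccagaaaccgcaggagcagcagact
Over the 256 aligned bases, 255 were identical (99.6%) and 1 differed. The panel's probe sequences were not used here, and whether a probe for 1 gene also detects the other was not tested. Calm5 was found in 763 of the 1788 Calm4 cells.

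Calm4 cells were also read by their count of Calm4, as a description, since this gene chose the cells. The 445 cells with 1 count of Calm4, the 557 with 2 to 4 and the 786 with 5 or more had medians of 108, 118 and 207 gene counts, so depth moved with the class, and its part in the levels was not tested. Krt16 stood at 7469, 14580 and 39698 CPM across these classes, Ivl at 1872, 3079 and 8131 CPM, and Calm5 at 863, 3192 and 16886 CPM. Lor stood at 294, 717 and 7334 CPM and Cnfn at 18.4, 155 and 1484 CPM. All 5 genes were highest in the class with most Calm4. Calm4 and Lor were both highest in part 9 of the file, and the part this has in the values by class was not tested.

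Genes of the other groups ran the other way over the same classes. Mgll, the monoacylglycerol lipase, stood at 15232, 7775 and 1738 CPM, and Cd36, the fatty acid translocase, at 7543, 2770 and 271 CPM. Lhx2 stood at 1615, 422 and 63.5 CPM. Krt79 stood at 43512, 44400 and 13606 CPM, so it was lower only in the class with 5 or more. Col17a1, by contrast, stood at 17342, 20963 and 18890 CPM, with the middle class highest. Mki67, the proliferation antigen, stood at 8020, 9757 and 5221 CPM.

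**Figure D4:**
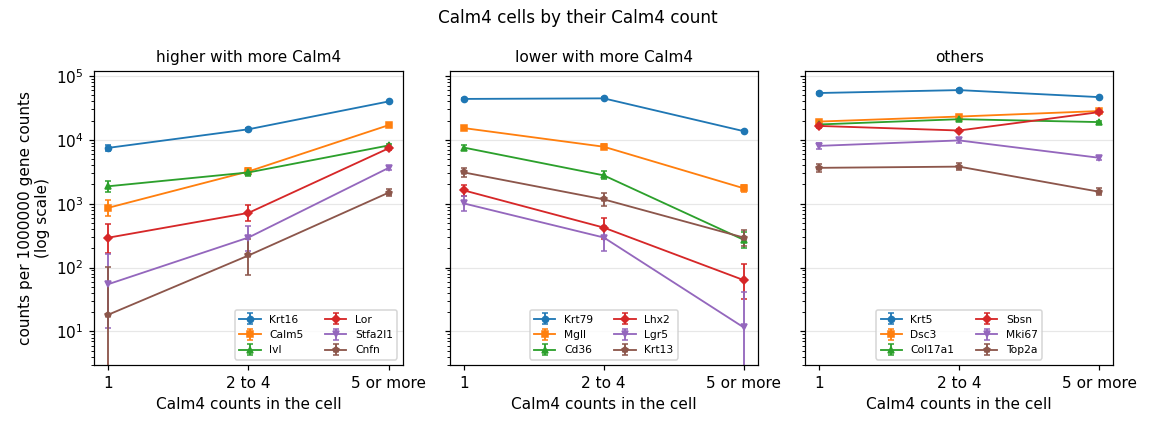
Levels in counts per 1000000 gene counts (log scale) in Calm4 cells with 1, 2 to 4 and 5 or more counts of Calm4, with exact 95% Poisson intervals, for genes that were higher with more Calm4 (left), lower with more Calm4 (middle) and for other genes (right). Lor stood at 294 CPM in the lowest and 7334 CPM in the highest class, Cd36 at 7543 and 271 CPM, and Col17a1 between 17342 and 20963 CPM.

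Within Calm4 cells, cells with and without Calm5 were set side by side, with the second gene read after thinning to 40 counts. Krt16 was found in 66.4% of cells with Calm5 and 33.6% of cells without. Gm94 was found in 19.7% and 1.202% of the same groups, Lor in 13.3% and 1.503%, and Them5 in 34.3% and 10.3%. Median depth was 188 gene counts with Calm5 and 125 without. Gm94 and Lor were thus found more often in Calm4 cells with Calm5, where Calm5 was read at full depth. Calm5, Gm94 and Lor were each highest in Calm4 cells of part 9 of the file. Calm5 stood at 6127 CPM in part 5, 2552 CPM in part 8 and 13903 CPM in part 9. The part this has in the shares was not tested.

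Stfa2l1 and Cxcr2, both also genes of neutrophils, were found together in Calm4 cells. Cxcr2, a chemokine receptor, stood at 1747 CPM in Calm4 cells, 64.9 CPM in Krt79 cells and 90.2 CPM in Dsc3 cells, against 912 CPM in the rest. In Calm4 cells it stood at 293 CPM in part 5, 219 CPM in part 8 and 2535 CPM in part 9 of the file. Csf3r, the granulocyte growth factor receptor, stood at 87.02 CPM in Calm4 cells, 242 CPM in Krt79 cells and 167 CPM in Dsc3 cells, against 2000 CPM in the rest. Il1r2, also on the neutrophil list, stood at 877, 472 and 425 CPM in the same groups, against 2171 CPM in the rest. Of the 262 Calm4 cells with Stfa2l1, 141 had Cxcr2 (53.8%) and 0 had Csf3r at full depth. Of the 1526 without Stfa2l1, 153 had Cxcr2 (10.0%) and 18 had Csf3r (1.18%). Il1r2 was found in 13 of the 262 cells and 158 of the 1526. After thinning, Cxcr2 was found in 15.3% of the Calm4 cells with Stfa2l1 and 2.94% of those without, at medians of 262 and 134 gene counts, and in 34.4% of Csf3r-gated cells. Lor was found in 24.05% and 3.54% of the same cells. The count of 0 allows up to 1.145% of the Calm4 cells with Stfa2l1 to have a Csf3r count, close to 1.18% without it. This limits detection and not expression.

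The genes that led Krt79 cells by 2-fold or more, 17 in number, were of several kinds, and included Cd36, Mgll and Nupr1. Cd36 stood at 2192 CPM in Calm4 cells, 14320 CPM in Krt79 cells and 116 CPM in Dsc3 cells, against 709 CPM in the rest of the section. Mgll stood at 5636 CPM in Calm4 cells, 28805 CPM in Krt79 cells and 2808 CPM in Dsc3 cells. Nupr1, a small stress-response protein, stood at 7280 CPM in Calm4 cells, 21896 CPM in Krt79 cells and 3516 CPM in Dsc3 cells. Genes of vessels stood among the 17 as well, with the pericyte gene Rgs5 at 191 CPM in Calm4 cells, 896 CPM in Krt79 cells and 296 CPM in Dsc3 cells, and the lymphatic and macrophage gene Lyve1 at 211, 554 and 270 CPM. The caveolar gene Cavin2 stood at 177, 1138 and 245 CPM and the T cell gene Cd8a at 66.9, 230 and 90.2 CPM in the same groups. The part of other cells' transcripts in these levels was not tested. Nupr1 and Cavin2 were chosen after their values were seen.

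Against Dsc3 cells, 327 genes were compared, of which 53 were 2-fold or more higher in Krt79 cells (16.2%) and 63 lower (19.3%), with a median log2 ratio of 0.00. Cd36 was 124-fold higher (65.0 to 270), on 9 counts in Dsc3 cells. Asprv1, the skin-specific aspartic protease, was 33.2-fold higher (22.8 to 50.5), Crct1 31.7-fold and Mgll 10.3-fold (8.96 to 11.8). Hsd3b4, of the steroid dehydrogenase family, was 21.5-fold higher on 2 counts in Dsc3 cells (5.79 to 180.2). The phosphate transporter Slc34a2 was 7.32-fold higher (3.61 to 17.3). Asprv1 and Crct1 were shared with Calm4 cells, which had 9362 and 3176 CPM of them, against 11549 and 3266 CPM in Krt79 cells.

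On the low side of the same comparison stood genes of the Dsc3 cells. Lgr5, the R-spondin receptor of epithelial stem cells, was 7.55-fold lower in Krt79 cells (6.55 to 8.74). Wif1, a secreted WNT antagonist, was 6.85-fold lower (5.79 to 8.13). Fxyd6, a sodium pump regulator, was 8.06-fold lower, the serpin Serpinb11 6.47-fold and Krt13 6.24-fold.

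Lipid genes were a list chosen after the values were seen. Of its 6 members, 3 were 2-fold or more higher in Krt79 cells than in Dsc3 cells and 1 was lower, the water and glycerol channel Aqp7, beside 16.2% and 19.3% of all genes. They summed to 8317 CPM in Calm4 cells, 44387 CPM in Krt79 cells and 3748 CPM in Dsc3 cells, most of it Mgll and Cd36. Aqp7, also an adipocyte gene, stood at 268 CPM in Calm4 cells, 47.2 CPM in Krt79 cells and 335 CPM in Dsc3 cells.

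Krt79 cells were not uniform. Cd36 was detected in 340 of them, at a median of 196 gene counts, and not in 848, at a median of 109. After thinning to 40 counts, Mgll was found in 78.0% of cells with Cd36 and 14.8% of cells without. Ly6g6c was found in 53.4% and 10.7% of the same cells, Asprv1 in 32.9% and 5.35%, Sbsn in 64.4% and 24.5%, and Nupr1 in 52.2% and 16.4%. Krt16 was found in 1.19% of cells with Cd36 and 12.3% of those without, and Lhx2 in 1.48% and 12.6%. At full depth Krt16 was found in 41 of the 340 cells with Cd36 (12.1%) and 24.2% of those without, and Lhx2 in 17 (5%) and 19.3%. The lipid genes and Ly6g6c thus lay together in a smaller set of Krt79 cells, in which Krt16 and Lhx2 were found less often.

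Endothelial cells also carry Cd36. Their markers are given beside it. Pecam1, Kdr and Vwf summed to 365 CPM in Calm4 cells, 1527 CPM in Krt79 cells and 940 CPM in Dsc3 cells, against 3488 CPM in the rest. Cd36 was found after thinning in 18.0% of Krt79 cells (15.8 to 20.3) and in 8.28% of Pecam1 cells. The part of endothelial transcripts in the Cd36 of Krt79 cells was not tested. Cd36 in Krt79 cells stood at 15563 CPM in part 5, 7688 CPM in part 8 and 20597 CPM in part 9 of the file, so it was high in each.

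Dsc3 cells carried a set of genes known from the hair follicle. Lhx2 stood at 432 CPM in Calm4 cells, 3036 CPM in Krt79 cells and 15443 CPM in Dsc3 cells, against 15.8 CPM in the rest of the section. Lgr5 stood at 261 CPM in Calm4 cells, 1456 CPM in Krt79 cells and 10999.5 CPM in Dsc3 cells, against 1013 CPM in the rest. Tbx1, a T-box factor, stood at 311 CPM in Calm4 cells, 1639 CPM in Krt79 cells and 8527 CPM in Dsc3 cells. Wif1 stood at 137 CPM in Calm4 cells, 1085 CPM in Krt79 cells and 7432 CPM in Dsc3 cells. All 4 ran in the same order, Dsc3 cells highest and Calm4 cells lowest.

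In the comparison of Calm4 cells with Dsc3 cells these genes were at the low end. Wif1 was 54.2-fold lower in Calm4 cells (39.4 to 76.3), Lgr5 42.1-fold lower (33.4 to 53.8) and Lhx2 35.8-fold lower (29.8 to 43.2). Of the hair follicle list, chosen after its values were seen, 6 of 8 genes were 2-fold or more lower in Calm4 cells than in Dsc3 cells, and 5 of 8 were lower in Krt79 cells than in Dsc3 cells. Over all genes compared, 40.1% and 19.3% were lower in these comparisons. Its hedgehog members were unlike each other in degree. The hedgehog-induced factor Gli1 stood at 117 CPM in Calm4 cells, 560 CPM in Krt79 cells and 2834 CPM in Dsc3 cells, and the hedgehog receptor Ptch1 at 1312, 1733 and 2512 CPM in the same groups. Sostdc1 did not follow the list, at 1516 CPM in Calm4 cells, 2447 CPM in Krt79 cells and 1417 CPM in Dsc3 cells.

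The list of WNT and stem genes had 9 members, of which 6 were lower in Calm4 cells than in Dsc3 cells and none was higher, beside 40.1% and 17.7% of all genes, at a median of -1.64 against -0.54 over all genes. Sfrp1, a secreted WNT antagonist, stood at 7725 CPM in Calm4 cells, 6815 CPM in Krt79 cells and 23995 CPM in Dsc3 cells. Ptn, the growth factor pleiotrophin, stood at 3772 CPM in Calm4 cells, 5925 CPM in Krt79 cells and 16705 CPM in Dsc3 cells. Sox9, a progenitor factor, stood at 6523 CPM in Calm4 cells, 14185 CPM in Krt79 cells and 17852 CPM in Dsc3 cells. Axin2, a WNT target, ran the other way, at 2028 CPM in Calm4 cells, 1474 CPM in Krt79 cells and 1185 CPM in Dsc3 cells, within 2-fold. The WNT ligand Wnt3 was highest in Calm4 cells, at 2135 CPM, against 70.7 CPM in Krt79 cells and 258 CPM in Dsc3 cells.

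Keratin, growth factor and protease inhibitor genes were also compared. Krt13 stood at 2287 CPM in Krt79 cells and 14284 CPM in Dsc3 cells, and Serpinb11 at 784 CPM in Krt79 cells and 5075 CPM in Dsc3 cells. Bmp2, a BMP ligand, stood at 716 CPM in Calm4 cells, 884 CPM in Krt79 cells and 5062 CPM in Dsc3 cells. Gpx2, a glutathione peroxidase, stood at 1838 CPM in Calm4 cells, 2122 CPM in Krt79 cells and 6968 CPM in Dsc3 cells. Of the growth signals list, 2 of 4 were lower in Calm4 cells than in Dsc3 cells, Bmp2 and the Notch target Hey1, near the 40.1% of all genes that were lower.

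Lhx2 was detected in 441 of the 698 Dsc3 cells, at a median of 113 gene counts, and not in 257, at a median of 88. After thinning, Lgr5 was found in 36.0% of cells with Lhx2 and 17.1% of cells without. Gli1 was found in 12.01% and 4.49% of the same cells, Tbx1 in 29.6% and 16.7%, and Wif1 in 24.9% and 14.3%. Bmp2 was found in 12.01% of cells with Lhx2 and 18.4% of those without, and Krt16 in 10.4% and 18.8%. Lgr5, Gli1, Tbx1 and Wif1 therefore leaned to cells with Lhx2, and Bmp2 and Krt16 to cells without. In Dsc3 cells Lhx2 stood at 10540 CPM in part 5, 16347 CPM in part 8 and 17790 CPM in part 9.

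Melanocyte genes stood with the Dsc3 cells. Dct, Tyrp1 and Tyr, the melanin-making enzymes, were at 107, 66.9 and 13.4 CPM in Calm4 cells, at 749, 731 and 254 CPM in Krt79 cells and at 3555, 2795 and 914 CPM in Dsc3 cells. The melanosome gene Mlana stood at 20.1 CPM in Calm4 cells, 271 CPM in Krt79 cells and 1043 CPM in Dsc3 cells. Against Dsc3 cells, Tyr was at least 54.6-fold lower in Calm4 cells and Mlana 52.0-fold lower (22.9 to 146). All 6 genes of this list, chosen after its values were seen, were 2-fold or more lower in Calm4 cells than in Dsc3 cells, and all 6 were lower in Krt79 cells than in Dsc3 cells, beside 40.1% and 19.3% of all genes. At least 1 count of Dct, Tyrp1, Tyr or Mlana was found in 20 of 1788 Calm4 cells (1.12%), 59 of 1188 Krt79 cells (4.97%) and 134 of 698 Dsc3 cells (19.2%), against 0.390% of the rest of the section.

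These melanocyte transcripts occurred together within the Dsc3 cells. Tyrp1 was found after thinning in 39.6% of the 106 Dsc3 cells with Dct and in 1.92% of the 572 without. Mlana was found in 13.2% and 0.874% of the same cells. Whether these are melanocytes segmented with a Krt5 cell, or Krt5 cells beside one, was not tested. With every cell that had 1 of the 4 genes left out, 134 of 326 genes were 2-fold lower in Calm4 cells than in Dsc3 cells, against 134 of 334 with them, and the 2 sets differ, since Tyr, Mlana and Tyrp1 are no longer among them.

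Macrophage and fibroblast markers were lowest in Calm4 cells. The 9 macrophage markers summed to 2902 CPM in Calm4 cells, 5200 CPM in Krt79 cells and 8977 CPM in Dsc3 cells, against 49355 CPM in the rest. Arg1, an arginase of macrophages that keratinocytes can also carry, made up 525 CPM of the sum in Calm4 cells, 766 CPM in Krt79 cells and 4392 CPM in Dsc3 cells. Between Krt79 cells and Dsc3 cells, 7 of 8 kept macrophage markers (median log2 ratio -0.08) and 4 of 5 fibroblast markers (-0.18) lay within 2-fold. So did 211 of all 327 genes compared, at a median of 0.00. Of 5 kept pericyte and smooth muscle markers, 2 were higher in Krt79 cells and 1, Tagln, was lower, beside 16.2% and 19.3% of all genes. Tagln stood at 80.3, 177 and 863 CPM in Calm4, Krt79 and Dsc3 cells. The matrix genes Bgn (1734, 8041 and 16731 CPM) and Aspn (261, 825 and 1996 CPM) also led Dsc3 cells by 2-fold or more. Bgn and Aspn were chosen after their values were seen. Fibroblast markers summed to 5817 CPM in Calm4 cells, 13878 CPM in Krt79 cells and 15533 CPM in Dsc3 cells, and their part in the gene differences was not tested. Retnla had no count in Krt79 cells or Dsc3 cells.

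All 5 proliferation genes stood lower in Dsc3 cells than in Calm4 cells and Krt79 cells. Only Ube2c was 2-fold or more lower against both, at 1563 CPM in Calm4 cells, 1380 CPM in Krt79 cells and 618 CPM in Dsc3 cells. Mki67 stood at 6811 CPM in Calm4 cells, 5412 CPM in Krt79 cells and 2743 CPM in Dsc3 cells, against 3400 CPM in Epcam Krt8 cells. Of 5 proliferation genes, 2 were 2-fold or more higher in Calm4 cells than in Dsc3 cells, Mki67 and Ube2c. Against Dsc3 cells, 3 were 2-fold or more higher in Krt79 cells, Top2a, Ube2c and Stmn1. The median log2 ratio of the 5 was 0.91 for Calm4 cells (-0.54 over all genes) and 1.05 for Krt79 cells (0.00 over all genes). Over all genes compared, 17.7% and 16.2% were higher in these comparisons. Top2a, a replication topoisomerase, stood at 2457 CPM in Calm4 cells, 2912 CPM in Krt79 cells and 1404 CPM in Dsc3 cells, against 3710 CPM in Epcam Krt8 cells. After thinning, Mki67 was found in 21.4% of Calm4 cells (19.5 to 23.4), 17.1% of Krt79 cells (14.9 to 19.4) and 8.26% of Dsc3 cells (6.30 to 10.6). Its share was 10.3% in Epcam Krt8 cells and 9.56% in Pecam1 cells, so the share in Dsc3 cells was no higher than that in endothelial-gated cells.

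Along the file, the Krt5 squamous cells were clustered. Parts 5, 8 and 9 of the 10 successive parts held 887, 972 and 1774 of them, 3633 in all, and the other 7 parts held 41. Of 100 finer parts, 23 held at least 1 of these cells, 11 held 90% of them and the fullest held 658. Part 9 held 1104 of the 1788 Calm4 cells, beside 397 Krt79 cells and 273 Dsc3 cells. Part 8 held 304 Calm4 cells, 432 Krt79 cells and 236 Dsc3 cells, and part 5 held 376, 348 and 163 of the same groups. All 3 groups thus occurred in each of the 3 parts, in different proportions.

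**Figure D5:**
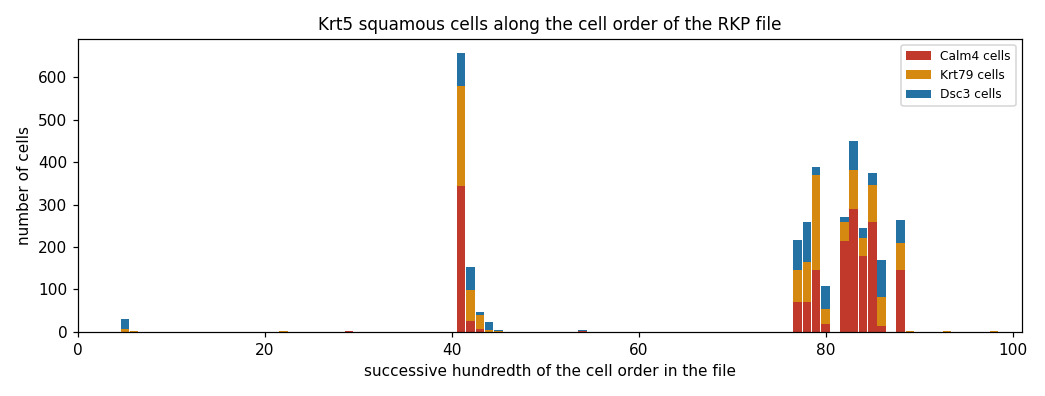
Number of Krt5 squamous cells in each of 100 successive parts of the cell order in the RKP file, stacked as Calm4 cells, Krt79 cells and Dsc3 cells. The cells stood in a few narrow stretches, the fullest with 658 cells, and each of the main stretches held all 3 groups.

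Several levels differed between those parts by more than counting error. Calm4 cells of part 9 had Calm4 at 56842 CPM, against 31450 CPM in part 5 and 19053 CPM in part 8. Gm94 in Calm4 cells stood at 585 CPM in part 5, 340 CPM in part 8 and 7784 CPM in part 9. Krt79 in Calm4 cells ran against this, at 42518, 55774 and 15229 CPM in the same parts. In Dsc3 cells, Krt13 stood at 9844, 12677 and 19698 CPM and Krt16 at 10112, 5132 and 3778 CPM in parts 5, 8 and 9. Col17a1 in Dsc3 cells was even, at 27660, 25591 and 27914 CPM. The parts are stretches of 1 section and not replicates.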

How the data were processed

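For each section the authors deposited raw transcript counts per feature and cell, unnormalized, whole numbers per the file headers, with feature names and cell identifiers in companion files. The submitters' processing notes list Seurat 4.4.0 without a role. The sources used here do not give how cells were segmented or which transcript quality limit applied, and positions were not used. Sections were grouped by title. With 1 section per line, no test was run.

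Cells with 20 or more gene counts were gated and counts summed per group (Python 3.11.15, numpy 2.4.6, scipy 1.17.1, pandas 2.3.3, figures by matplotlib 3.10.9), scaled to 1000000 gene counts. A gene was kept when its sum exceeded the highest negative control probe in 1 group. A lower group at or under that level, or with no count, took the level (at least 3 counts) and the fold is a bound, except that with 1 to 3 counts the ratio is given with its interval. Ratios have exact conditional binomial intervals, levels exact Poisson and shares Clopper-Pearson intervals, all 95% and covering counting error only. Doublets were not called. Steps were tested on simulated data.

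Members and lists were chosen with earlier results of these data known. Named genes were the 12 largest ratios each way at 200 CPM or more (8 between groups of Krt5 cells), list members and gate genes; others are said to be chosen after their values were seen, as are Trim29, Anxa8, Serpinb5, Nupr1, Cavin2, Gpx2 and the co-detection pairs. The alternatives were a median of ratios, a total without the 4 gate genes, every cell weighted alike, depth weighting, control probes subtracted, no filter, cell minimums of 40 and 80, other gates and thinning, and, added after seeing the data, 2 counts for a group, leaving out parts 5, 8 or 9, and leaving out cells with a melanocyte gene. Sequences are RefSeq's (GRCm38.p6).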

Additional observations from a re-analysis of the deposited data

How the results depend on the processing

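The share of Krt5 squamous cells in the RKP section was 1.28% with 3 or more counts of Krt5, 1.07% with 2 or more partner genes, 1.82% with 1 or more counts of Krt5 and 0.839% after thinning to 40 counts, against 1.48%. The ratio of the RKP share to the EKP share was 2458 with 3 or more counts of Krt5 (1 EKP cell), 41.0 with 1 or more (85 EKP cells), 983 with cells of 80 or more gene counts (2 EKP cells) and 1359 after thinning (1 EKP cell), against 473. With 2 or more partner genes no EKP cell remained, and the ratio was at least 681.

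Between the groups of Krt5 cells, the median of ratios gave 100 genes higher and 85 lower for Calm4 cells against Dsc3 cells (59 and 134 otherwise). Without part 9 the lower counts were 87 against Dsc3 cells and 89 against Krt79 cells, over 311 and 325 genes. With no filter, 100 genes were lower in Krt79 cells than in Dsc3 cells. The cause was not tested. The other counts stayed within 1.5 times. Of the values of named genes under other scalings, filters, gates and cell minimums, 912 of 912 kept their side of the 2-fold line, and under the choices made after seeing the data 423 did and 9 did not. Of these values, 218 and 136 lay outside the counting interval of the value reported. The 9 were Lor, Lce1m and Atp6v1b1 (log2 ratio -0.29 against Krt79 cells) without part 9, and, by construction, Tyr, Mlana and Tyrp1 in both comparisons of Calm4 cells without melanocyte-gene cells. No direction reversed. No paired analysis was possible because each line has 1 section. Depth limits low genes, and with 1 section per line no difference can be set against spread between tumours.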

Other observations

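Beyond the lists above, further genes differed between the groups. Ndufa4l2, Prom2, Cstdc4 and Satb1 were highest in Calm4 cells, whereas Timp3 was highest in Dsc3 cells and Emb was lowest in Calm4 cells. Ndufa4l2, a mitochondrial protein, stood at 13830 CPM in Calm4 cells, 2824 CPM in Krt79 cells and 2499 CPM in Dsc3 cells. Prom2, a membrane protein related to Prom1, stood at 8568 CPM in Calm4 cells, 2476 CPM in Krt79 cells and 1971 CPM in Dsc3 cells, whereas Prom1 was under 240 CPM in each. Cstdc4, of the cystatin family, stood at 6440 CPM in Calm4 cells, 590 CPM in Krt79 cells and 708 CPM in Dsc3 cells. Satb1, a chromatin organizer, stood at 1530 CPM in Calm4 cells, 265 CPM in Krt79 cells and 438 CPM in Dsc3 cells. The matrix protease inhibitor Timp3 stood at 1366 CPM in Calm4 cells, 2671 CPM in Krt79 cells and 10407 CPM in Dsc3 cells. Emb, the adhesion protein embigin, stood at 6269 CPM in Calm4 cells, 18748 CPM in Krt79 cells and 17684 CPM in Dsc3 cells. These genes were chosen after their values were seen.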
